A study of Mus musculus with 9 samples.

Results

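The replication-dependent core histone genes of the mouse were followed in nuclei and cytoplasms of day 21 oocytes that lack the RNA helicase MTR4 and in those of wild-type (WT) oocytes. They were taken by symbol as every row of the deposited expression table named Hist1 to Hist4 and h2a, h2b, h3 or h4. This gave 62 of 23235 gene symbols, of which 18 encode H2A, 19 H2B, 12 H3 and 13 H4. The Hist1 cluster on chromosome 13 holds 48 of them, the Hist2 cluster on chromosome 3 holds 10, and 4 lie elsewhere (Hist3h2a, Hist3h2ba and Hist3h2bb-ps on chromosome 11, Hist4h4 on chromosome 6).

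Total RNA was sequenced after oocytes had been split into nucleus and cytoplasm by micromanipulation, with 10 nuclei or cytoplasms in each sample. The labels list 2 libraries of MTR4-null nuclei and 3 of WT nuclei, and 2 libraries each of MTR4-null and WT cytoplasms. They name the genotypes Mtr4-null and WT and the cell type oocyte. The null allele, any Cre driver and the strain are not given in the sources used here. The table holds 1 column of FPKM (the fragment count of a gene, relative to its length and to the library) for each of the 4 groups, which is the authors' mean over the libraries. No spread between libraries, SD, n or test can therefore be given, the depth is unknown, and every difference below describes 4 columns without a replicate check.

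A nucleosome wraps DNA around H2A-H2B dimers and an H3-H4 tetramer. The genes counted here supply these proteins in bulk during S phase. Their mRNAs are short, mostly lack introns and, unlike other mRNAs, end without a poly(A) tail at a conserved stem-loop that the stem-loop binding protein SLBP holds from processing to translation and decay. Oocytes stay arrested in meiosis while they grow and store such mRNAs for the embryo. MTR4, encoded by Skiv2l2 in this table, unwinds nuclear RNAs and feeds them to the RNA exosome, a complex that degrades RNA from its 3′ end.

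The stem-loop is shown first because it is the feature that sets these mRNAs apart and because it differs between histone types. In the GENCODE M21 annotation (GRCm38), which holds all 62 genes, the histone stem-loop was found in a transcript of 42 members and of 0.119% of all genes. Of the 20 members without it, 13 have no annotated transcript longer than 420 nucleotides. Not every annotated transcript ends near its stem-loop. The bases after it number 23 in Hist1h2ag, but 454 in Hist1h4c, 2010 in Hist1h2ac and 2445 in Hist4h4. The lines give DNA letters from 5′ to 3′ in the sense of the mRNA, with the stem and loop in capitals.
Hist1h2ag: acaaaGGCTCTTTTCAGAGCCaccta
Hist1h3c: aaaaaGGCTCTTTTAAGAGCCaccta
Hist2h2ac: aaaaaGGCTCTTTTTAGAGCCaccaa
Hist1h4c: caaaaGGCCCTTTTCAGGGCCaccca
Hist1h4b: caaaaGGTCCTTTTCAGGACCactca
All 30 stem-loops of H2A, H2B and H3 genes began with GGCT. Among the 12 of H4 genes, 10 began with GGCC and 2, those of Hist1h4b and Hist1h4j, with GGTC. There were 8 distinct stem-loops, and the one printed for Hist1h2ag was shared by 23 members of the H2A, H2B and H3 types.

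Skiv2l2 stood at 2.91 FPKM in MTR4-null nuclei against 16.2 in WT nuclei, and at 2.51 FPKM in MTR4-null cytoplasms against 21.6 in WT cytoplasms. All 12 oocyte markers examined, among them Gdf9 and Zp3, were above 20 FPKM in every column, with a summed level of 11022 FPKM in MTR4-null nuclei, 9071 in WT nuclei, 6853 in MTR4-null cytoplasms and 11129 in WT cytoplasms. The 17 granulosa cell markers summed to 82.1 FPKM in MTR4-null nuclei, 107 in WT nuclei, 57.8 in MTR4-null cytoplasms and 83.5 in WT cytoplasms. Genes at 1 FPKM or more in at least 1 column were kept, which left 14270 genes and 53 of the 62 core histone genes. Differences are MTR4-null minus WT, or nucleus minus cytoplasm, of log2(FPKM + 1), on which differences between low values look smaller than they are, and a gene is counted as higher or lower where it lies at least 2-fold apart on that scale.

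Core histone mRNAs took a larger share of the MTR4-null columns than of the WT columns. Summed over the 62 genes they reached 10497 FPKM in MTR4-null nuclei against 3101 in WT nuclei, and 7047 FPKM in MTR4-null cytoplasms against 3841 in WT cytoplasms. These sums are 3.38 times higher in the nucleus and 1.83 times higher in the cytoplasm. They make up 1.19% of the summed FPKM in MTR4-null nuclei against 0.363% in WT nuclei, and 1.63% in MTR4-null cytoplasms against 0.922% in WT cytoplasms. FPKM is relative to the library, so more histone RNA per oocyte and less of other RNA cannot be told apart.

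The types differed in these sums. H4 genes summed to 5942 FPKM in MTR4-null nuclei against 963 in WT nuclei, and to 4186 FPKM in MTR4-null cytoplasms against 1250 in WT cytoplasms, 6.17 and 3.35 times higher. H4 thus supplied 56.6% of the core histone sum in MTR4-null nuclei against 31.05% in WT nuclei, and 59.4% in MTR4-null cytoplasms against 32.5% in WT cytoplasms, a share that does not depend on how a column was scaled. H2A sums were 3.11 times higher in the nucleus and 1.79 times higher in the cytoplasm, and H3 sums 2.97 and 1.58 times higher. H2B stood apart: its sum was 1705 FPKM in MTR4-null nuclei against 1204 in WT nuclei, and 1153 FPKM in MTR4-null cytoplasms against 1577 in WT cytoplasms. That difference rested on 1 gene, since without Hist2h2bb the H2B sum was 5.15 times higher in the nucleus and 1.74 times higher in the cytoplasm. Without that gene H4 still supplied 57.7% of the remaining sum in MTR4-null nuclei against 44.0% in WT nuclei, and 60.6% in MTR4-null cytoplasms against 44.0% in WT cytoplasms.

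**Figure D1:**
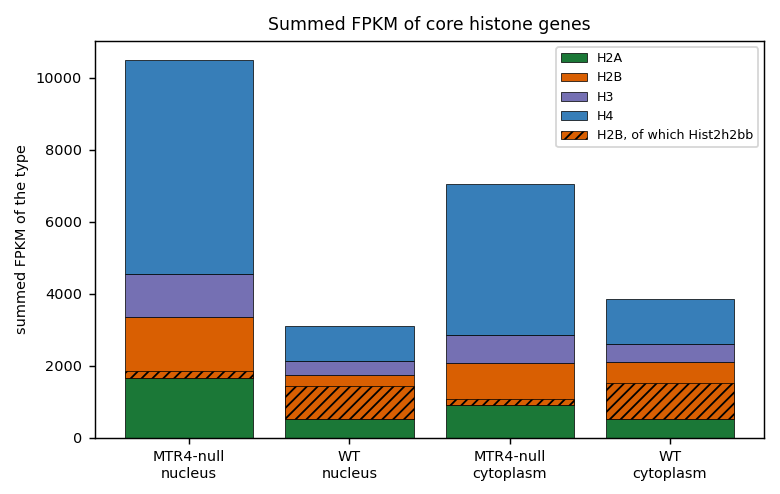
Summed FPKM (vertical axis) of the core histone genes in each of the 4 deposited columns, stacked by histone type, with the part of H2B that comes from Hist2h2bb hatched. H4 is the largest part of both MTR4-null columns, while Hist2h2bb alone forms 29.4% of the sum in WT nuclei and 26.0% in WT cytoplasms.

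In the nucleus the difference between genotypes ran across nearly the whole family. Of the 34 members at 1 FPKM or more in WT nuclei, 29 (85.3%) were higher in MTR4-null nuclei and 2 were lower, while 17.6% of the 12135 genes past the same limit were higher. Over the 53 members kept, 46 were higher and 2 lower, with a median of 2.43 on the log2 scale against 0.21 for all genes kept, of which 23.9% were higher and 12.3% lower. Since 9 of the 53 passed the filter through MTR4-null columns alone and none through WT columns alone, the set of 34 is the one that the filter does not favour. After subtraction of the median of all genes 46 members were higher and 3 lower, against 18.9% and 16.4% of all genes.

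Members at a high level in WT nuclei shared the difference. Of the 18 members between 10 and 100 FPKM there, 15 were higher in MTR4-null nuclei, against 10.3% of the 5505 genes in that range. Of the 7 at 100 FPKM or more, 5 were higher, against 3.63% of 717 genes. All 9 members between 1 and 10 FPKM were higher, against 26.1% of genes at that level.

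In the cytoplasm fewer members passed 2-fold. Of the 44 members at 1 FPKM or more in WT cytoplasms, 24 were higher in MTR4-null cytoplasms and 2 were lower, while 9.28% of the 11023 genes past that limit were higher and 27.6% lower. Among the 53 kept, 30 were higher and 2 lower, with a median of 1.28 against −0.26 for all genes, of which 15% were higher and 21.4% lower. Centring on the median of all genes made this 37 higher and 2 lower, against 19.6% and 13% of all genes. In both compartments 29 members were higher, and 2, Hist2h2ac and Hist2h2bb, were lower in both. The share of all genes higher or lower in both was not computed, so these joint counts have no background.

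**Figure D2:**
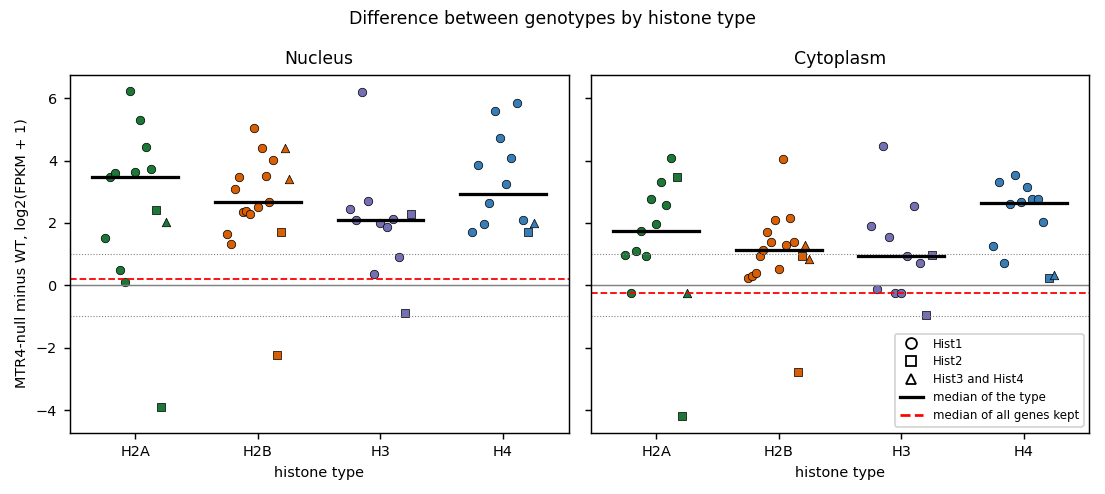
Difference between MTR4-null and WT on the log2(FPKM + 1) scale (vertical axis) for each core histone gene kept, by histone type, in the nucleus (left) and the cytoplasm (right). Symbols mark the cluster, black bars the median of a type, the red dashed line the median of all genes and dotted lines 2-fold; all 12 H4 genes lie above 2-fold in the nucleus, and Hist2h2ac and Hist2h2bb lie far below it in both panels.

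H2A, which enters the nucleosome as a dimer with H2B, had 5 members higher and 1 lower of the 6 at 1 FPKM or more in WT nuclei (median 2.23), and 6 higher and 1 lower of the 11 past that limit in WT cytoplasms (median 1.09). Over its 13 genes kept, 2 of them through MTR4-null columns alone, 10 were higher and 1 lower in the nucleus (median 3.46), and 8 and 1 in the cytoplasm (median 1.74). Its level rests on Hist1h2aa, which encodes TH2A, a variant known from testis and oocytes. Hist1h2aa had 1195 FPKM in MTR4-null nuclei against 418 in WT nuclei, and 674 in MTR4-null cytoplasms against 343 in WT cytoplasms. It supplied between 66.9% and 78.8% of the H2A sum in every column. The largest differences came from genes with low FPKM in WT nuclei. Hist1h2ag, a gene for canonical H2A, had 146 FPKM in MTR4-null nuclei against 0.948 in WT nuclei, and 78.5 in MTR4-null cytoplasms against 10.7 in WT cytoplasms, differences of 6.24 and 2.76. Hist1h2ai had 45.0 FPKM in MTR4-null and 0.169 in WT nuclei, beside 21.5 in MTR4-null and 1.26 in WT cytoplasms. Hist1h2ak had 93.2 FPKM in MTR4-null and 3.40 in WT nuclei, beside 38.1 in MTR4-null and 5.58 in WT cytoplasms. All 3 genes were far above their WT column in both compartments, and the gap was wider in the nucleus.

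Hist2h2ac, an H2A gene of the Hist2 cluster, went the other way. It had 4.71 FPKM in MTR4-null nuclei against 85.3 in WT nuclei, and 5.14 in MTR4-null cytoplasms against 112 in WT cytoplasms, differences of −3.92 and −4.20. In both WT columns it was the H2A gene next in level after Hist1h2aa, whereas only 2 of the other 12 H2A genes kept lay below it in each MTR4-null column. None of its 150-base transcript windows occurs in another annotated gene. Only exact matches to annotated transcripts were searched, so near matches and copies outside them are not covered. Hist2h2ab, from the same cluster, had 15.7 FPKM in MTR4-null and 2.13 in WT nuclei, beside 25.5 in MTR4-null and 1.38 in WT cytoplasms. Hist3h2a, on chromosome 11, had 77.2 FPKM in MTR4-null and 18.0 in WT nuclei, beside 21.4 in MTR4-null and 25.5 in WT cytoplasms. Hist2h2aa1 and Hist2h2aa2 stayed under 1 FPKM in every column, with 87.0% and 100% of their windows shared with other annotated genes.

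H2B, the partner of H2A, had 8 higher and 1 lower of the 9 members at 1 FPKM or more in WT nuclei (median 2.52), and 6 higher and 1 lower of 13 in WT cytoplasms (median 0.95). Over its 17 genes kept, 4 of them through MTR4-null columns alone, 16 were higher in the nucleus (median 2.66) and 9 in the cytoplasm (median 1.14), with 1 lower in each. The nuclear median over the genes kept becomes 4.64 with a pseudocount of 0.1, beside 4.26 for H2A and 2.95 for H4, so the order of the types by this median depends on the pseudocount. Hist2h2bb, the exception, was the core histone gene with the highest FPKM in both WT columns. It had 195 FPKM in MTR4-null nuclei against 910 in WT nuclei, and 145 in MTR4-null cytoplasms against 998 in WT cytoplasms, differences of −2.22 and −2.77. Hist1h2ba, which encodes TH2B, the partner of TH2A in testis and oocytes, was the highest H2B gene of the MTR4-null columns. It stood at 631 FPKM in MTR4-null nuclei against 200 in WT nuclei, and at 400 FPKM in MTR4-null cytoplasms against 337 in WT cytoplasms, the last pair being less than 2-fold apart.

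Among canonical H2B genes, Hist1h2bj had 248 FPKM in MTR4-null nuclei against 6.61 in WT nuclei, and 243 in MTR4-null cytoplasms against 56.6 in WT cytoplasms. Hist1h2bl had 23.9 FPKM in MTR4-null and 0.180 in WT nuclei, beside 38.9 in MTR4-null and 1.42 in WT cytoplasms. Both genes were thus more than 2-fold higher in MTR4-null oocytes in either compartment. Hist2h2be, which encodes a variant known from mouse olfactory neurons, was low throughout, at 3.997 FPKM in MTR4-null and 0.544 in WT nuclei, beside 1.06 in MTR4-null and 0.0829 in WT cytoplasms. On chromosome 11 Hist3h2ba had 106 FPKM in MTR4-null nuclei against 4.12 in WT nuclei, and 35.6 in MTR4-null cytoplasms against 14.1 in WT cytoplasms. Hist3h2bb-ps, a pseudogene of the same cluster, had 15.3 FPKM in MTR4-null and 0.521 in WT nuclei, beside 3.86 in MTR4-null and 1.70 in WT cytoplasms, a higher FPKM in MTR4-null in either compartment that passed 2-fold in the nucleus only.

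H3, which carries many of the modified residues of chromatin, had 5 of the 8 members at 1 FPKM or more in WT nuclei higher (median 1.93) and 3 of 8 in the cytoplasm (median 0.83), with none lower in either. Hist1h3b, Hist1h3d and Hist2h3c1 were kept through MTR4-null columns alone, and with them 8 of 11 were higher in the nucleus (median 2.09, the value of Hist1h3b) and 4 in the cytoplasm (median 0.94). Hist1h3c stood out with 196 FPKM in MTR4-null nuclei against 1.69 in WT nuclei, and 140 in MTR4-null cytoplasms against 5.37 in WT cytoplasms, differences of 6.20 and 4.46. Hist1h3a was the highest H3 gene of the MTR4-null columns, with 256 FPKM in MTR4-null nuclei against 46.6 in WT nuclei and 210 in MTR4-null cytoplasms against 55.1 in WT cytoplasms. In WT the highest were others, Hist1h3e in the nucleus and Hist1h3f in the cytoplasm. Hist1h3e had 252 FPKM in MTR4-null nuclei against 195 in WT nuclei, and 136 in MTR4-null cytoplasms against 163 in WT cytoplasms, less than 2-fold apart in both. Hist1h3f had 223 FPKM in MTR4-null and 54.8 in WT nuclei, beside 166 in MTR4-null and 197 in WT cytoplasms. Of the H3 genes that led in WT, the first was thus within 2-fold throughout and the second in the cytoplasm. Hist1h3h was at least 2-fold apart in both compartments, at 73.7 FPKM in MTR4-null and 15.98 in WT nuclei, beside 51.7 in MTR4-null and 8.11 in WT cytoplasms.

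The H3 gene of the Hist2 cluster with the highest level, Hist2h3b, had 21.04 FPKM in MTR4-null nuclei against 39.9 in WT nuclei, and 19.8 in MTR4-null cytoplasms against 38.7 in WT cytoplasms. These differences, −0.89 and −0.94, fall just short of 2-fold, and that in the nucleus passes it after centring (−1.10). Of its transcript windows, 73.7% also occur in other genes, so its reads can be split with Hist2h3c1 and Hist2h3c2. Hist2h3c1 had 4.03 FPKM in MTR4-null and 0.0393 in WT nuclei, beside 2.14 in MTR4-null and 0.585 in WT cytoplasms, and Hist2h3c2 stayed under 1 FPKM. Genes for the H3.1 protein (Hist1h3a, Hist1h3g, Hist1h3h and Hist1h3i) had a median of 1.996 in the nucleus and 1.43 in the cytoplasm, while the 7 kept genes for the H3.2 protein, with the 3 kept through MTR4-null columns among them, had 2.09 and −0.13, where the range of the H3.2 genes in the cytoplasm, from −0.94 to 4.46, spans that of the others.

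H4, the partner of H3 in the tetramer, was the type with no exception in the nucleus, where all 12 genes kept, none of them through MTR4-null columns alone, were higher in MTR4-null (median 2.94). In the cytoplasm 9 of 12 were higher (median 2.63). Hist1h4c was the highest H4 gene of every column, with 1534 FPKM in MTR4-null nuclei against 392 in WT nuclei, and 1014 in MTR4-null cytoplasms against 620 in WT cytoplasms. Its part of the H4 sum was 25.8% in MTR4-null nuclei against 40.7% in WT nuclei, and 24.2% in MTR4-null cytoplasms against 49.6% in WT cytoplasms. Hist1h4h, low in WT beside it, had 777 FPKM in MTR4-null nuclei against 28.1 in WT nuclei, and 558 in MTR4-null cytoplasms against 87.2 in WT cytoplasms.

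Hist1h4f had 230 FPKM in MTR4-null nuclei against 3.86 in WT nuclei, and 238 in MTR4-null cytoplasms against 19.5 in WT cytoplasms. Hist1h4k had 175 FPKM in MTR4-null nuclei against 2.09 in WT nuclei, and 52.3 in MTR4-null cytoplasms against 6.86 in WT cytoplasms. Both were higher in MTR4-null oocytes in either compartment, with the wider gap in the nucleus. Hist1h4b had 441 FPKM in MTR4-null and 29.5 in WT nuclei, beside 357 in MTR4-null and 35.4 in WT cytoplasms. Hist1h4i had 887 FPKM in MTR4-null and 92.4 in WT nuclei, beside 666 in MTR4-null and 74.1 in WT cytoplasms. For these genes the difference in the cytoplasm (3.30 for Hist1h4b, 3.15 for Hist1h4i) was nearly as large as in the nucleus (3.86 and 3.25). The H4 genes outside Hist1 were past the 2-fold limit in the nucleus and within it in the cytoplasm. Hist2h4 had 231 FPKM in MTR4-null and 69.5 in WT nuclei, beside 75.9 in MTR4-null and 64.4 in WT cytoplasms. Hist4h4 had 71.6 FPKM in MTR4-null and 17.3 in WT nuclei, beside 36.8 in MTR4-null and 29.0 in WT cytoplasms. None of the windows of Hist2h4 is shared with another annotated gene.

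**Figure D3:**
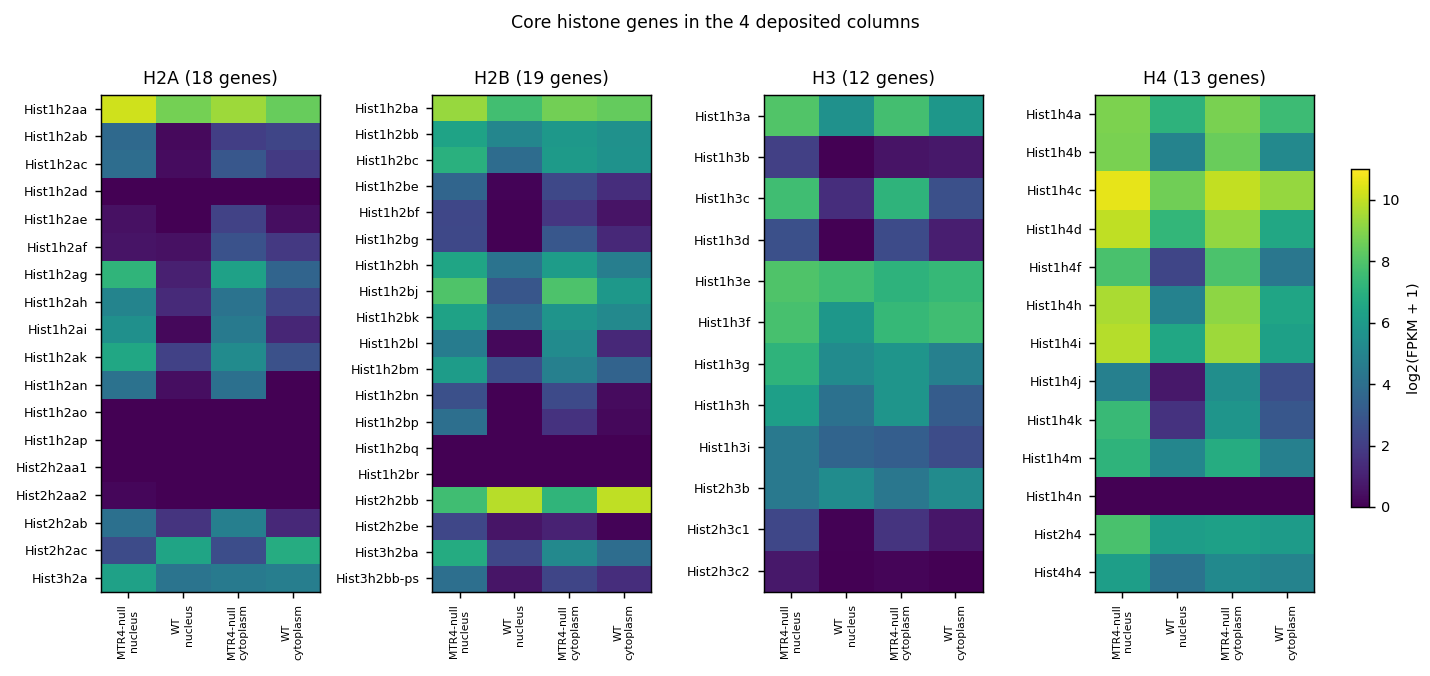
Level of each of the 62 core histone genes as log2(FPKM + 1) (colour), with 1 panel for each histone type and 1 column for each deposited group. Each genotype pair has MTR4-null on the left; Hist2h2ac and Hist2h2bb are brighter in the WT columns, and the dark rows are the members at or near 0 throughout.

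The clusters differed as well. In Hist1, 24 of the 26 genes at 1 FPKM or more in WT nuclei were higher in MTR4-null nuclei and 22 of 35 in the cytoplasm, and none was lower in either. With the 7 kept through MTR4-null columns alone, 38 of 42 genes kept were higher in MTR4-null nuclei and 28 in MTR4-null cytoplasms. Split at its 2 widest gaps, Hist1 falls into 3 stretches along chromosome 13, and in the nucleus 11 of 12, 5 of 5 and 22 of 25 genes kept were higher. In the cytoplasm these counts were 11 of 12, 4 of 5 and 13 of 25. Of the 5 Hist2 genes at 1 FPKM or more in WT, 2 were higher and 2 lower in the nucleus, and 1 was higher and 2 lower in the cytoplasm. Hist2h2be and Hist2h3c1, kept through MTR4-null columns alone, were higher in the nucleus and within 2-fold in the cytoplasm. Summed over the cluster, Hist2 stood at 476 FPKM in MTR4-null nuclei against 1108 in WT nuclei, and at 275 FPKM in MTR4-null cytoplasms against 1215 in WT cytoplasms. Hist1 supplied 92.9% of the core histone sum in MTR4-null nuclei against 63.0% in WT nuclei, and 94.7% in MTR4-null cytoplasms against 66.5% in WT cytoplasms. Both rest largely on Hist2h2bb. Without that gene Hist2 summed to 281 FPKM in MTR4-null nuclei against 197 in WT nuclei, which turns the direction in the nucleus, and to 129.6 FPKM in MTR4-null cytoplasms against 217 in WT cytoplasms. Hist1 then supplied 94.6% in MTR4-null nuclei against 89.2% in WT nuclei, and 96.7% in MTR4-null cytoplasms against 89.9% in WT cytoplasms.

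Many members had values at or near 0 in WT. A value of 0 was listed in at least 1 column for 17 members. Hist1h2ad, Hist1h2ao, Hist1h2ap, Hist1h2bq and Hist1h2br were listed at 0 in all 4 columns, and Hist1h4n was at or near 0 in each. Of the windows of these genes, from 59.3% (Hist1h2ad) to 92.4% (Hist1h2bq) also occur in other annotated genes. Their reads can thus be split with other copies, and a value of 0 does not show that such a gene is silent. In WT nuclei 10 members were listed at 0 and had a value above 0 in MTR4-null nuclei, among them Hist1h2bp (15.2 FPKM), Hist1h3d (5.46), Hist1h2bn (5.34), Hist1h2bg (4.20), Hist1h2bf (4.07) and Hist1h3b (3.25). The share of all genes that did so was not computed. Of the 2135 genes kept that were under 1 FPKM in WT nuclei, 59.9% were higher in MTR4-null nuclei, against 17 of 19 core histone genes. All of these passed the filter through other columns, which favours higher values there. Hist1h2ae was listed at 0 in WT nuclei and reached 0.403 FPKM in MTR4-null nuclei, and Hist1h2an, listed at 0 in WT cytoplasms, reached 15.8 FPKM in MTR4-null cytoplasms. No fold is given for these genes. Expression lay with fewer genes in WT: the 5 highest genes held 51.1% of the core histone sum in MTR4-null nuclei against 68.2% in WT nuclei, and 49.7% in MTR4-null cytoplasms against 65.0% in WT cytoplasms.

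The compartments were also set against each other within each genotype, with the same columns as above. In MTR4-null oocytes 15 of the 53 genes kept were higher in the nucleus than in the cytoplasm and 2 were lower, against 17% and 1.84% of all genes, and their median of 0.60 lay near the 0.52 of all genes. After centring 7 were higher and 6 lower, against 4.96% and 5.66%. In WT oocytes none was higher and 17 were lower, against 12.4% and 4.71% of all genes, with a median of −0.61 against −0.04 for all genes. Centring left 1 higher and 17 lower, against 13.1% and 4.3%. The lowest WT nucleus minus cytoplasm difference, −2.92, was that of Hist1h2bj, at 6.61 FPKM in the nucleus against 56.6 in the cytoplasm. Next came Hist1h2ag, at 0.948 FPKM in the nucleus against 10.7 in the cytoplasm. In MTR4-null oocytes Hist1h2bj stood at 248 FPKM in the nucleus, close to its 243 in the cytoplasm. Hence 48 of the 53 genes had a larger MTR4-null minus WT difference in the nucleus than in the cytoplasm, as did 71.5% of all genes, and after centring 40 of 53, against 54.9%. Whether the compartments differ in their response was not tested.

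H2A and H2B genes often lie head to head and share the stretch of DNA between their starts. There were 13 such pairs, with 172 to 305 bases between the starts, and in 10 of them both genes were kept. Both genes were higher in MTR4-null nuclei in 8 pairs and in MTR4-null cytoplasms in 5. Hist1h2ak with Hist1h2bn and Hist1h2an with Hist1h2bp belong to the 8 as well as to the 5. Of these genes, Hist1h2bn, Hist1h2an and Hist1h2bp were kept through MTR4-null columns alone. So was Hist1h2ae, whose pair with Hist1h2bg is among the 5. The filter favours higher values for such genes. No share was computed for pairs of other genes, so the pair counts have no background. Hist1h2ag and Hist1h2bj, 269 bases apart, differed by 6.24 and 5.03 in the nucleus. Hist2h2ac and Hist2h2be, 238 bases apart, differed in opposite directions, by −3.92 and 1.69 in the nucleus and by −4.20 and 0.93 in the cytoplasm, at very unequal levels.

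**Figure D4:**
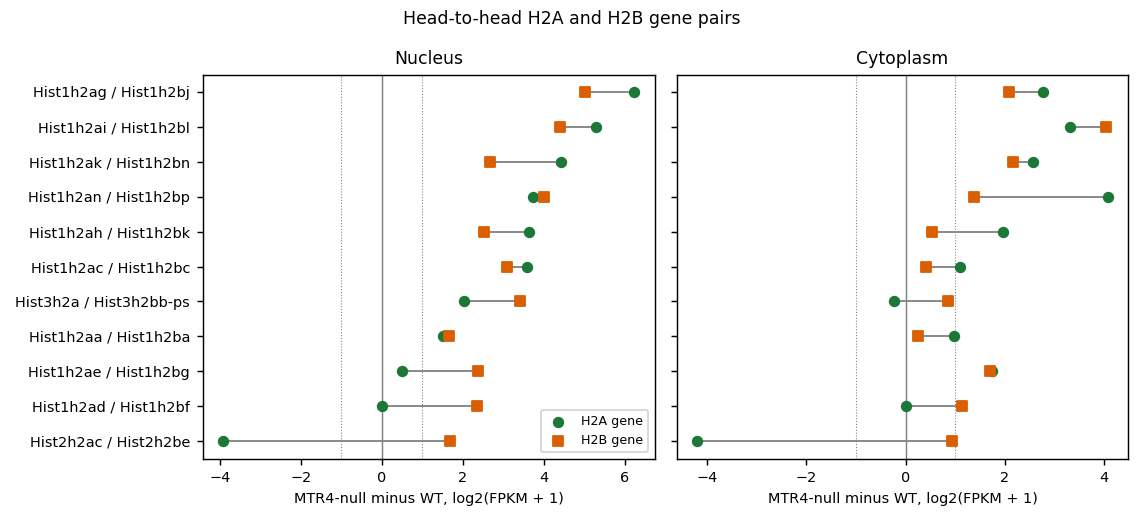
Difference between MTR4-null and WT on the log2(FPKM + 1) scale (horizontal axis) for the H2A gene (circle) and the H2B gene (square) of each head-to-head pair with at least 1 gene kept, in the nucleus (left) and the cytoplasm (right). Most pairs lie to the right of 0 together; in the lowest row Hist2h2ac (−3.92 in the nucleus) lies far to the left of Hist2h2be (1.69), and Hist1h2ad, at 0, was not kept.

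Promoters of 2 members far higher in MTR4-null oocytes and of the 2 that were lower are shown, to set the letters before their starts side by side. RefSeq (GRCm38.p6) had a promoter for 56 of the 62 members. The lines give the bases that end just before the start, 5′ to 3′ on the strand of the gene. Capitals mark TATAAA (the TATA box), CCAAT (the site named for its letters) and ATTTGCAT (an octamer known from H2B promoters), each searched on both strands, so that a match on the other strand appears as its reverse complement.
Hist1h2ag, chr13:22042950-22043099, minus strand: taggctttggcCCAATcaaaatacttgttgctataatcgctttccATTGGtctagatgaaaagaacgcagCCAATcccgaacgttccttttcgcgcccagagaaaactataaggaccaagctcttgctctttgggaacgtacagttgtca
Hist1h4k, chr13:21750554-21750703, minus strand: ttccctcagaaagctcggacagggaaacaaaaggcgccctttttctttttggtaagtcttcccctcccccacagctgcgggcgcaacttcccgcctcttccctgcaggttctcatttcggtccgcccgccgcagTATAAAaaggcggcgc
Hist2h2bb, chr3:96269550-96269699, plus strand: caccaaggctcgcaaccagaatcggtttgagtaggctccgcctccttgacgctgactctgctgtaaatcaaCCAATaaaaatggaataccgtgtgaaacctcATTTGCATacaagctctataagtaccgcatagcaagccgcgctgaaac
Hist2h2ac, chr3:96220881-96221130, minus strand: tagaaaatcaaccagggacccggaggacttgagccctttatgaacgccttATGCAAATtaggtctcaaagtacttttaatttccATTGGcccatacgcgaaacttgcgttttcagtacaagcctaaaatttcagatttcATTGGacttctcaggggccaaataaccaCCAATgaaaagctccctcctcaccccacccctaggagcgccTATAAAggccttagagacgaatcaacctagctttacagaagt
Over the 250 bases before the start, CCAAT was found in 18 of 18 H2A, 16 of 16 H2B, 8 of 10 H3 and 3 of 12 H4 promoters, against 33.8% of 32851 promoters of all genes. TATAAA was found in 25 of the 56, against 12.4% of all. The octamer was found in 7 of 18 H2A and 7 of 16 H2B promoters and in none of H3 or H4, against 1.60% of all. Promoters of a head-to-head pair overlap, so 1 site can be counted for both genes, as is the octamer between Hist1h2aa and Hist1h2ba.

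Hist2h2bb and Hist2h2ac, the genes lower in MTR4-null, hold the octamer, and Hist1h2ag and Hist1h2bj do not. Over H2A and H2B, the 14 kept genes with it had a median difference of 2.21 in the nucleus and 0.74 in the cytoplasm, while the 13 without it had 4.02 and 2.17. Both groups hold genes kept through MTR4-null columns alone, among them Hist1h2ae with the octamer and Hist1h2an, Hist1h2bf, Hist1h2bn and Hist1h2bp without it. The medians of 4.02 and 2.17 are themselves the values of 2 such genes, Hist1h2bp in the nucleus and Hist1h2bn in the cytoplasm. The filter thus favours larger differences, and no split over genes at 1 FPKM or more in WT was made. This split was made after the values were seen and was not tested, and the octamer is also present in genes that were higher in MTR4-null, such as Hist1h2aa.

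Copies of these genes are alike, so the split of reads between them can be uncertain. Of the 62 members, 52 have at least 1 window of 150 bases that also occurs in another annotated gene, and 2 share all their windows. The 10 members that share none (Hist1h2aa, Hist1h2ak, Hist1h2bm, Hist1h4d, Hist2h2ab, Hist2h2ac, Hist2h2be, Hist2h4, Hist3h2ba and Hist3h2bb-ps) had 9 higher and 1 lower in the nucleus (median 2.52) and 5 higher and 1 lower in the cytoplasm (median 1.13). Of all genes kept, 23.9% were higher and 12.3% lower in the nucleus, and 15% and 21.4% in the cytoplasm. Hist2h2be, among the 9, was kept through MTR4-null columns alone. Values of Hist1h3h, with 90.5% of its windows shared, Hist1h2ai (86.1%), Hist1h2an (72.5%), Hist1h2ag (65.5%), Hist1h4k (53.4%) and Hist1h3i (52.7%) are uncertain for this reason. This list is not complete, and some kept members left out of it share more of their windows than Hist1h2an does. Values of any member with shared windows can be uncertain as well. Hist2h2bb shares 33.6%, with the gene model Gm42743.

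The annotated stem-loop was set beside the difference between genotypes. Of the 35 kept with it, 32 were higher and 1 lower in MTR4-null nuclei (median 2.43), and of the 18 kept without it 14 were higher and 1 lower (median 2.54). Intronless genes of other families were also examined, because 56 of the 62 members have a single exon and the median of their shortest transcripts, 498 nucleotides, is near the selected cDNA of 300 to 400 bp. Among 258 kept coding genes with 1 exon that are no histones, 135 (52.3%) were higher and 36 lower in MTR4-null nuclei (median 1.06), and 103 (39.9%) were higher and 8 lower in the cytoplasm (median 0.52). Of these, 29 have transcripts under 1000 nucleotides, and 13 of them (44.8%) were higher and 4 lower in MTR4-null nuclei (median 0.93), and 16 (55.2%) were higher and 1 lower in the cytoplasm (median 1.35). In the cytoplasm the short genes were thus higher about as often as the core histone genes kept (56.6%, median 1.28), while in the nucleus the core histone genes had the larger share (86.8%, median 2.43). These counts are over genes kept, and 9 of the core histone genes were kept through MTR4-null columns alone. Of the 34 core histone genes at 1 FPKM or more in WT nuclei, 85.3% were higher there (median 2.21). No such set was made for the single-exon genes. The part of gene structure in the result was not tested.

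Factors that act on histone mRNA did not pass 2-fold more often than all genes. Of 28 genes for its 3′ end processing and turnover, 6 (21.4%) were higher and 2 (7.14%) lower in MTR4-null nuclei (median 0.30), where 23.9% of all genes were higher and 12.3% lower. In the cytoplasm 2 (7.14%) were higher and 5 (17.9%) lower (median −0.41), against 15% and 21.4% of all genes. Skiv2l2 itself is among the lower. Slbp, for the stem-loop binding protein, had 243 FPKM in MTR4-null nuclei against 508 in WT nuclei, and 163 in MTR4-null cytoplasms against 508 in WT cytoplasms. Lsm1, for a subunit of the ring that binds the 3′ ends of mRNAs due for decay, had 41.3 FPKM in MTR4-null and 9.52 in WT nuclei, beside 14.5 in MTR4-null and 6.86 in WT cytoplasms. Exosc10, for a nuclease of the nuclear exosome, had 15.2 FPKM in MTR4-null and 29.2 in WT nuclei, beside 10.2 in MTR4-null and 40.2 in WT cytoplasms.

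Replacement histones, variants that are also made outside S phase, were 3 higher of 9 (33.3%) and none lower in each compartment (median 0.70 in the nucleus and 0.26 in the cytoplasm), against 23.9% of all genes higher in the nucleus and 15% in the cytoplasm. H2afz, for H2A.Z, had 167 FPKM in MTR4-null nuclei against 46.6 in WT nuclei, and 145 in MTR4-null cytoplasms against 28.3 in WT cytoplasms. H3f3a and H3f3b, for H3.3, were within 2-fold in both. Of 24 genes of S phase and proliferation, 3 (12.5%) were higher and 3 lower in MTR4-null nuclei (median 0.10), against 23.9% and 12.3% of all genes. In the cytoplasm 1 (4.17%) was higher and 10 (41.7%) lower (median −0.76), against 15% and 21.4%. Mki67, a marker of cycling cells, had 14.7 FPKM in MTR4-null and 37.2 in WT nuclei, beside 9.42 in MTR4-null and 38.9 in WT cytoplasms. Pcna, the clamp of the replication fork, had 90.5 FPKM in MTR4-null and 97.8 in WT nuclei, beside 71.7 in MTR4-null and 111 in WT cytoplasms. Ccne1, for cyclin E1, was the S phase gene with the largest difference, at 28.4 FPKM in MTR4-null and 1.04 in WT nuclei, beside 16.1 in MTR4-null and 1.64 in WT cytoplasms.

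Markers of other ovarian cells were given the same count. Of the 16 granulosa markers kept, 5 (31.2%) were higher and 4 lower in the nucleus, against 23.9% and 12.3% of all genes, and none was higher and 2 (12.5%) lower in the cytoplasm, against 15% and 21.4%. Fshr stayed under 1 FPKM in every column. Amh was listed at 0 in WT nuclei and stood at 1.44 FPKM in MTR4-null nuclei, and Cyp11a1 at 1.47 FPKM in MTR4-null nuclei against 21.3 in WT nuclei. The 8 markers of theca and stroma summed to 10.1 FPKM in MTR4-null nuclei against 5.57 in WT nuclei, and to 3.67 FPKM in MTR4-null cytoplasms against 2.50 in WT cytoplasms. Of the 5 kept, 2 (Dcn and Pdgfra) were higher and none lower in MTR4-null nuclei, against 23.9% and 12.3% of all genes, and none passed 2-fold in the cytoplasm. Dcn stood at 2.36 FPKM and Lum at 0.980 in MTR4-null nuclei, and both were listed at 0 in WT nuclei. Pdgfra had 1.71 FPKM in MTR4-null nuclei against 0.173 in WT nuclei. Of 5 blood and endothelial markers, Pecam1 was the one kept, at 12.3 FPKM in MTR4-null and 18.9 in WT nuclei, beside 5.61 in MTR4-null and 20.4 in WT cytoplasms, and the others were at or near 0. The part of such cells in the core histone levels was not tested.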

How the data were processed

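Nuclei and cytoplasms of MTR4-null and WT oocytes gave 9 libraries, and the authors deposited 1 table of FPKM with 4 columns, 1 for each group. Each column is taken as the authors' mean. TopHat2 2.1.1, Cufflinks 2.2.1 and the build mm9 are named in the submitters' processing notes. Per the labels' protocols, ribosomal RNA was depleted and cDNA of 300 to 400 bp was selected. Many values have the repeating decimals of a mean of 3 values, although the labels list 2 libraries for most groups, so the number of libraries behind a mean is uncertain. A last row without a name equals the column sums (50% of all values) and was left out. There were 0 columns of other samples.

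Differences were computed on log2(FPKM + 1) in Python 3.11.15 with numpy 2.4.6 and pandas 2.3.3, over genes at 1 FPKM or more in at least 1 column. With 1 column for each group the planned linear model was not run, so no test was made. The counting was tested on simulated data. Stem-loops, transcript lengths and windows of 150 bases came from GENCODE M21 and promoters from RefSeq. Their build, GRCm38, is not that of the files, and they were joined by symbol and synonym.

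The members and lists were chosen with earlier results of these data known. Members were named by rule (46 of 62): up to 3 with the largest difference in each direction for each type and genotype comparison, among those that reach 5 FPKM in either column, the highest of each type in each column, those outside Hist1 and those at 0 in a column. Pairs, stem-loops, shared windows, level ranges, counts over members at 1 FPKM or more in WT, cluster sums without Hist2h2bb, stretches of Hist1, H3.1 and H3.2 genes and single-exon genes were chosen after values were seen, as were Hist1h3g, Hist1h3i, Hist1h4j, Hist1h2bm and Hist1h4d where named, and the genes named from lists. Alternatives were another pseudocount, filters, centrings, a rescaling, quantile normalization and a 4-fold limit.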

Additional observations from a re-analysis of the deposited data

Results flagged for a closer look

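For 5 core histone genes the MTR4-null minus WT difference was above 0 in the nucleus and below 0 in the cytoplasm. The nuclear difference exceeded the cytoplasmic one by 3.73 for Hist1h2ab, 2.22 for Hist1h3b, 0.63 for Hist1h3e, 2.26 for Hist1h3f and 2.28 for Hist3h2a, on the log2(FPKM + 1) scale. The difference between compartments was not tested, because each group is 1 column. Hist1h2ab had 12.5 FPKM in MTR4-null nuclei against 0.225 in WT nuclei, and 3.13 in MTR4-null cytoplasms against 3.95 in WT cytoplasms. Hist1h3b was listed at 0 in WT nuclei, so its value depends on the pseudocount. In the cytoplasm none of the 5 is 2-fold apart. Centring on the median of all genes puts the cytoplasmic difference of all 5 above 0, for Hist1h2ab (0.0021), Hist1h3b (0.13), Hist1h3e (0.0040), Hist1h3f (0.011) and Hist3h2a (0.022).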

How the results depend on the processing

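No paired analysis was possible because the table holds 1 column for each group, and for the same reason leaving out each replicate could not be run. No difference of a core histone gene past 2-fold, in any of the 4 comparisons, changed its sign under the rescaling or quantile normalization. The other alternatives could not change a sign. A pseudocount, filter or 4-fold limit leaves it as it is, and the centrings shifted differences by less than 2-fold. The nuclear median of H2B over the genes kept, 2.66, became 4.64 with a pseudocount of 0.1. The count of members higher in MTR4-null nuclei stayed within 1.5 times its value under all of them. In the cytoplasm the count of 30 higher became 18 with a 4-fold limit. Counts between compartments were less stable. For MTR4-null nucleus over cytoplasm, 15 higher became 7 with centring on all genes kept, 6 with centring on genes at 1 FPKM in every column, 6 with rescaling without small RNA genes, 6 with quantile normalization and 1 with a 4-fold limit. The 2 lower became 6 under each of these centrings, the rescaling and quantile normalization, and 1 with a filter of 5 FPKM or a 4-fold limit. For WT nucleus over cytoplasm, 0 higher became 3 with a pseudocount of 0.1, 1 with centring on all genes kept, and 2 with the other centring or the rescaling. The 17 lower became 28 with a pseudocount of 0.1 and 4 with a 4-fold limit. Why these counts moved was not tested. The depth is unknown, low FPKM of such short transcripts have no error here, and copies with shared sequence cannot be separated.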
